A study of Aspergillus nidulans with 12 samples.

Results

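The comparison described here sets Aspergillus nidulans cultures labelled rimO overexpression (genotype OE_rimO) against wild-type cultures of strain A1153, both harvested at 48 h. These are 4 of the series' 12 libraries, 2 cultures on each side, and their strain and time labels define the comparison. The comparison itself was chosen with earlier results of these data known. The liquid minimal medium held 50 mM glucose, with 10 mM nitrate as the nitrogen source, and was kept at 37 °C, and the labels place the late harvest 8 h after the glucose had run out. The promoter that drives rimO, the place of the construct and the number of independent transformants are not given in the sources used here. Cultures of the same strains at 17 h (2 of each), a time the labels assign to primary metabolism, served for a second, separate contrast. Levels in the 2 cultures labelled rimO deletion at 54 h, also taken 8 h after glucose ran out, are given beside some genes as a description.

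RimO is named in the series title as a homolog of Rim15p. In budding yeast, Rim15 is a protein kinase that cells use when nutrients run out. It acts downstream of the nutrient-sensing kinases PKA, Sch9 and TOR and promotes entry into stationary phase, storage of trehalose and resistance to stress. In A. nidulans, starvation also goes with conidiation, secondary metabolism and self-digestion of the mycelium.

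Poly(A) RNA was sequenced and counted per gene. The OE-labelled libraries at 48 h held 17891416 and 9269951 counts, and the wild-type libraries held 15388572 and 15537639 counts. Levels are given as CPM, counts scaled to a common library size with TMM factors (a correction for library composition), for culture 1 and culture 2 of each group, and are compared within a gene only. Changes are log2 fold changes, OE-labelled minus wild type, with an SE, from edgeR's quasi-likelihood test. Genes whose adjusted p (Benjamini-Hochberg, over all 9670 genes tested) was under 0.05 were called. Genes said to rise or fall were higher or lower in the OE-labelled cultures than in wild type at 48 h. These words do not describe a change over time within a strain. Log2 CPM of the paired cultures correlated with r = 0.992 in the OE-labelled and 0.993 in the wild-type group, across genes. With 2 cultures a side, the p-values rest on the spread between duplicate cultures, pooled over all 12 libraries and moderated across genes. In such bulk RNA, fewer cells of a type and less RNA per cell cannot be told apart.

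The gene that gives the strain its label was examined first. rimO carries no symbol in the sources used here. General knowledge places it at AN7572. AN7572 had 322 and 357 CPM in the OE-labelled cultures at 48 h, against 447 and 437 CPM in the wild-type cultures. The OE-labelled cultures were thus lower than wild type at this harvest, without overlap (log2 change -0.38 ± 0.09, adjusted p = 0.0047). At 17 h AN7572 had 588 and 504 CPM in the OE-labelled cultures, against 99.8 and 109 CPM in wild type (log2 change 2.38 ± 0.10, adjusted p = 7.64e-10). The strain difference moved by -2.77 ± 0.13 on the log2 scale between 17 h and 48 h (adjusted p = 6.63e-09). The deletion-labelled cultures still held 51.6 and 48.4 CPM at 54 h. The 48 h call was lost without OE-labelled culture 1 (log2 change -0.31, adjusted p = 0.0514). Whether AN7572 is rimO was not tested. If it is, the label goes against the counts at 48 h. The strain is therefore called OE-labelled throughout, and directions below compare labelled strains, not amounts of rimO transcript.

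**Figure D1:**
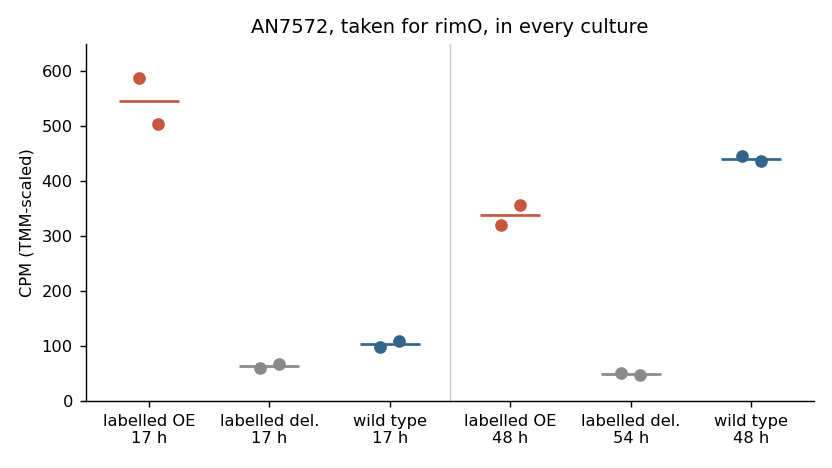
AN7572 in CPM (y axis) in each of the 12 cultures, by labelled strain and harvest (x axis), with points for cultures and bars for group means. The OE-labelled cultures stand far above wild type at 17 h and below it at 48 h.

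At 48 h, 3974 of 9670 genes tested were called, which is 41.1% of them. Of these, 2220 were higher in the OE-labelled cultures (23.0%) and 1754 were lower (18.1%). Most of the changes were small: the median size of a change over all genes was 0.29 on the log2 scale. At least 2-fold differences were called for 503 genes that were higher (5.2%) and 588 that were lower (6.08%). The genes lower by at least 2-fold had a median of 11.6 CPM in the OE-labelled cultures and 40.5 CPM in wild type, and those higher had 9.44 and 2.91 CPM.

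**Figure D2:**
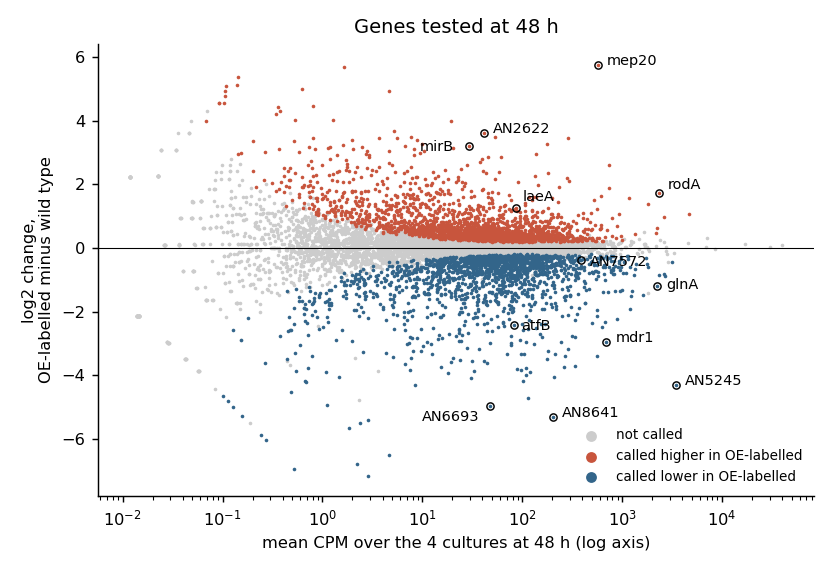
Log2 change at 48 h (y axis, OE-labelled minus wild type) against mean CPM over the 4 cultures (x axis, log scale), 1 point per gene with any count in them, and circles on genes described in the text. The metalloprotease gene mep20 stands highest among well-expressed genes, and AN8641, AN6693 and AN5245 stand among the lowest.

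Most genes that differed by at least 2-fold at 48 h were not called at 17 h, but nor were most of all genes tested. The contrast of the same strains at 17 h shares no library with the 48 h contrast. It called 2854 genes (29.5%), and the numbers not called there are to be read beside that share. Of the 503 genes higher by at least 2-fold at 48 h, 69 were also higher by at least 2-fold at 17 h (13.7% of these and 15.1% of the 457, or 4.73% of genes tested, at 17 h), 41 were lower by at least 2-fold at 17 h, and 325 were not called there. Of the 588 genes lower by at least 2-fold at 48 h, 47 were also lower by at least 2-fold at 17 h (7.99% of these and 13.7% of the 343, or 3.55% of genes tested, at 17 h). Another 36 were higher by at least 2-fold at 17 h, and 384 were not called. With changes of any size counted, 133 of the 588 were called lower and 71 higher at 17 h, where 14.5% and 15.1% of all genes were. Of the 503, 102 were called higher and 76 lower at 17 h. The test of the difference between the harvests, an interaction term in the same fit, called 2792 genes (28.9%). It called 454 of the 588 lower genes and 251 of the 503 higher genes. It reads the 48 h values too, so genes chosen for a large 48 h change pass it more readily.

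Genes of siderophore synthesis and uptake were higher in the OE-labelled cultures at 48 h. Siderophores are small iron chelators: A. nidulans secretes triacetylfusarinine C and keeps ferricrocin inside the cell, and it makes them when iron is short. Of the 13 genes on this list, 11 rose and 0 fell, where 23.0% and 18.1% of all genes did. The median log2 change was 1.67, against 0.056 over all genes tested, and 8 of the 13 rose by at least 2-fold. Leaving out any of the 4 libraries left 10 or 11 of them higher.

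Among the synthesis genes, sidI rose most. For sidI, a ligase gene of the triacetylfusarinine branch, the OE-labelled cultures had 9 and 9.02 CPM, against 0.232 and 0.336 CPM in wild type (log2 change 4.94 ± 0.31, adjusted p = 2.55e-08). The hydratase gene of that branch, sidH, stood at 18.2 and 18.8 CPM against 1.28 and 3.08 CPM in wild type (log2 change 3.07 ± 0.20, adjusted p = 4.14e-08; 3.86 without wild-type culture 2). The peptide synthetase gene of that branch, sidD, stood at 49 and 47.7 CPM against 7.6 and 8.18 CPM in wild type (log2 change 2.61 ± 0.19, adjusted p = 8.73e-08). The groups did not overlap in any of these genes, and the cultures of the OE-labelled pair were close to each other. The ferricrocin peptide synthetase gene sidC had 63 and 61.9 CPM in the OE-labelled cultures and 18.6 and 16.5 CPM in wild type (log2 change 1.83 ± 0.20). sidJ, whose product in A. fumigatus hydrolyses the imported siderophore, had 14.4 and 12.7 CPM, against 4.35 and 4.99 CPM in wild type (log2 change 1.55 ± 0.13).

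The transporter genes rose less evenly. mirB, which encodes the triacetylfusarinine C importer, had 63.1 and 41.8 CPM in the OE-labelled cultures, against 3.83 and 7.51 CPM in wild type (log2 change 3.22 ± 0.26, adjusted p = 2.65e-07; 3.81 without wild-type culture 2). The related transporter genes mirD (1.70 ± 0.20), sit1 (1.67 ± 0.23), sit2 (0.51 ± 0.14) and mirC (0.41 ± 0.10) rose by the log2 changes given. The last 2 calls are the less firm ones. sit2 had an adjusted p of 0.0682 without OE-labelled culture 2. mirC had 0.0557 without wild-type culture 1 and 0.0674 without OE-labelled culture 1. Of the regulators, hapX, which encodes the activator of the iron-starvation response, had 23.4 and 23.3 CPM, against 15.8 and 15 CPM in wild type (log2 change 0.60 ± 0.10, adjusted p = 0.000273). sreA, the repressor gene of siderophore synthesis, was not called, with 109 and 107 CPM in the OE-labelled cultures and 107 and 96.9 CPM in wild type. The other gene not called was amcA, with 68.7 and 64.7 CPM and 57 and 71.9 CPM.

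The same list stood the other way at 17 h. There 0 of the 13 genes were higher and 7 were lower in the OE-labelled cultures (15.1% and 14.5% of all genes), with a median log2 change of -0.84. sidI had 7.07 and 5.74 CPM in the OE-labelled cultures at 17 h and 19.1 and 23 CPM in wild type (log2 change -1.70 ± 0.16, adjusted p = 2.79e-06). sidD had 138 and 107 CPM and 240.1 and 278 CPM (log2 change -1.08 ± 0.15). mirB did not differ beyond its spread at 17 h, at 166 and 149 CPM and 154 and 158 CPM (adjusted p = 0.975). The interaction test called 11 of the 13 genes (28.9% of all genes), each with the 48 h difference above the 17 h difference, among them sidI (6.64 ± 0.35, adjusted p = 1.19e-08) and sidD (3.69 ± 0.24, adjusted p = 1.05e-07). The deletion-labelled cultures at 54 h had 152 and 142 CPM of sidH and 353 and 302 CPM of sidD.

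**Figure D3:**
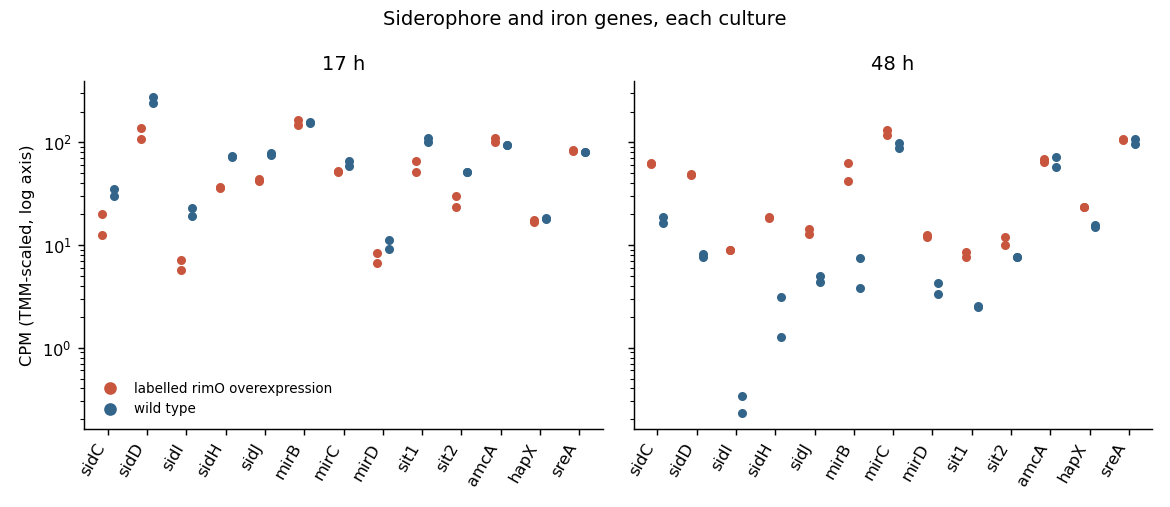
Siderophore and iron genes in CPM (y axis, log scale) at 17 h (left) and 48 h (right), with 1 point per culture and the OE-labelled cultures left of wild type for each gene (x axis). The OE-labelled cultures lie at or below wild type in most genes at 17 h and above it in all but amcA and sreA at 48 h.

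Genes of conidiation, the making of asexual spores, changed in both directions. Of 27 genes on the list, 12 rose and 8 fell, where 23.0% and 18.1% of all genes did, and the median log2 change was -0.13. The central regulators of the pathway act in the order brlA, abaA, wetA, and all of them rose. brlA had 243 and 254 CPM in the OE-labelled cultures, against 152 and 191 CPM in wild type (log2 change 0.53 ± 0.11, adjusted p = 0.00148). abaA had 14.9 and 18.7 CPM, against 5.63 and 4.7 CPM in wild type (log2 change 1.69 ± 0.20, adjusted p = 1.1e-05). wetA had 6.08 and 7.85 CPM, against 3.02 and 3.81 CPM in wild type (log2 change 1.00 ± 0.22, adjusted p = 0.00211). The groups did not overlap in these 3 genes, although wetA stayed at a few CPM. At 17 h no call was made for them, and brlA was then at 1.78 and 2.03 CPM in the OE-labelled cultures and 1.15 and 1.31 CPM in wild type.

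Several genes for the coat and pigment of conidia rose with them. rodA, which encodes the hydrophobin of the spore surface, had 3595 and 3581 CPM in the OE-labelled cultures, against 809 and 1332 CPM in wild type (log2 change 1.75 ± 0.18, adjusted p = 2.56e-06). It was among the 5 genes that gained most CPM. ivoA, which acts in conidiophore pigment, had 218 and 231 CPM, against 37.1 and 56.4 CPM in wild type (log2 change 2.26 ± 0.14, adjusted p = 2.22e-08). ayg1, a gene of the green pigment pathway in A. fumigatus, had 4.02 and 6.4 CPM, against 0.232 and 1.12 CPM in wild type (log2 change 2.88 ± 0.43, adjusted p = 0.000103; 2.17 without wild-type culture 1 and 4.42 without wild-type culture 2). yA, the laccase gene behind the green colour of conidia, had 33.5 and 40 CPM, against 15.5 and 18 CPM in wild type (log2 change 1.12 ± 0.12, adjusted p = 5e-06). Other genes of the same kind were not called: ivoB had 648 and 609.7 CPM and 711 and 836 CPM in wild type, pksP had 9.04 and 8.84 CPM and 9.57 and 10.4 CPM, and the hydrophobin gene dewA had 5.07 and 4.96 CPM and 7.95 and 6.61 CPM. ivoB was called lower without wild-type culture 1 (log2 change -0.40, adjusted p = 0.0459), with the 4 libraries alone (adjusted p = 0.0294) and by limma-voom (adjusted p = 0.0301). dewA was called lower with the 4 libraries alone (log2 change -0.58, adjusted p = 0.042), with the 5 CPM filter (adjusted p = 0.0424) and by limma-voom (adjusted p = 0.0347).

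Genes for a catalase and a trehalase of conidia fell instead. catA, the catalase gene of conidia, had 2.78 and 2.8 CPM in the OE-labelled cultures, against 17.2 and 15.6 CPM in wild type (log2 change -2.55 ± 0.20, adjusted p = 2.41e-07). treA, the acid trehalase gene of the conidial wall, had 90.4 and 86.1 CPM, against 352 and 243 CPM in wild type (log2 change -1.75 ± 0.13, adjusted p = 1.41e-07). Both genes were higher in the OE-labelled cultures at 17 h (log2 change 1.11 ± 0.28 for catA and 1.96 ± 0.14 for treA), and the difference between harvests was called for each (-3.66 ± 0.34, adjusted p = 2.29e-06, and -3.71 ± 0.19, adjusted p = 1.02e-08). Upstream of brlA the picture was mixed: flbC (-0.62 ± 0.13), flbA (-0.38 ± 0.09) and fluG (-0.54 ± 0.11) fell, and flbD (0.66 ± 0.15) rose. fluG, which acts early in the signal to conidiate, had 78.6 and 88.6 CPM in the OE-labelled cultures and 122 and 121 CPM in wild type at 48 h, and at 17 h 69 and 55.2 CPM and 751 and 799 CPM. Its 17 h difference was -3.64 ± 0.12, and the difference between harvests was 3.10 ± 0.16 (adjusted p = 1.05e-08). Without OE-labelled culture 1 the list had 5 lower genes in place of 8, tmpL being among those lost (adjusted p = 0.0892), and flbD then had an adjusted p of 0.0548. stuA (0.32 ± 0.10) and vosA (0.41 ± 0.12) also rose, but stuA was lost without wild-type culture 1 or OE-labelled culture 1 (adjusted p = 0.141 and 0.136), and so was vosA (0.091 and 0.108).

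The 4 listed genes of trehalose and glycerol metabolism were lower, and genes without a symbol are not on this list. All 4 fell, where 18.1% of all genes did, with a median log2 change of -1.38. The trehalase gene treA above is among them. orlA, the trehalose-6-phosphate phosphatase gene, had 45.4 and 45 CPM in the OE-labelled cultures, against 103 and 100.3 CPM in wild type (log2 change -1.17 ± 0.08, adjusted p = 3.32e-08). ccg9, named after a trehalose synthase gene of Neurospora, had 12.9 and 14.2 CPM, against 45.5 and 35.3 CPM in wild type (log2 change -1.59 ± 0.15, adjusted p = 1.06e-06). gldB, the glycerol dehydrogenase gene, had 120.4 and 132 CPM, against 213 and 216 CPM in wild type (log2 change -0.76 ± 0.08, adjusted p = 3.36e-06). In each of these genes the OE-labelled pair lay below the wild-type pair without overlap. The interaction test called all 4 genes with the 48 h difference below the 17 h difference, where it called 28.9% of all genes in either direction.

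Among 25 nutrient and stress signalling kinases and their partners, 6 rose and 6 fell, where 23.0% and 18.1% of all genes did. The genes of the stress-activated MAP kinase pathway described here come from this list and from the stress-defence list that follows. Several were chosen after their values were seen, and the genes changed in both directions. In this pathway a phosphotransfer protein, a response regulator and a kinase cascade lead to the kinase SakA, the homolog of yeast Hog1, which acts with the bZIP factor AtfA. sakA had 271 and 277 CPM in the OE-labelled cultures, against 689 and 639.5 CPM in wild type (log2 change -1.28 ± 0.08, adjusted p = 1.88e-08). pbs2, named after the yeast kinase just above Hog1, had 54.8 and 51.8 CPM, against 94.6 and 89.5 CPM in wild type (log2 change -0.79 ± 0.08, adjusted p = 4.95e-06). ypdA, the phosphotransfer protein gene, had 366 and 383 CPM, against 715 and 743 CPM in wild type (log2 change -0.96 ± 0.08, adjusted p = 2.12e-07). atfA had 111 and 86.6 CPM, against 373 and 284 CPM in wild type (log2 change -1.73 ± 0.13, adjusted p = 1.3e-07). The related bZIP gene atfB fell the most of this group, with 28.2 and 24 CPM in the OE-labelled cultures and 154 and 125 CPM in wild type (log2 change -2.41 ± 0.13, adjusted p = 9.89e-09). All of these pairs were separate between the strains. At 17 h none of sakA, ypdA, atfA and atfB was called, and pbs2 was lower by a smaller amount (-0.28 ± 0.08). The interaction test called all 5 genes (28.9% of all genes). It reads the 48 h values too, so genes picked for a fall at 48 h pass it more readily.

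Other genes of the pathway rose or were not called. The kinase gene sskB rose (0.35 ± 0.07, adjusted p = 0.00183) with 108 and 108 CPM in the OE-labelled cultures and 84.7 and 84.4 CPM in wild type. The response regulator gene sskA rose by 0.31 ± 0.10, and that call was lost without wild-type culture 1, wild-type culture 2 or OE-labelled culture 1 (adjusted p = 0.115, 0.0544 and 0.185). The sensor kinase gene tcsB had 241 and 219 CPM and 212 and 198 CPM and was not called, nor was mpkC, a close relative of sakA, with 27.4 and 30.4 CPM and 36.1 and 31.1 CPM. Of the other kinase genes on the list, schA, the gene of the Sch9-type kinase, had 207 and 179.6 CPM in the OE-labelled cultures, against 359.6 and 407 CPM in wild type (log2 change -0.99 ± 0.11, adjusted p = 9.95e-06). pkaC, a PKA catalytic subunit gene by its name, fell by a small amount (log2 change -0.36 ± 0.09), and its call was lost without wild-type culture 1 or OE-labelled culture 1 (adjusted p = 0.0612 and 0.0897). The MAP kinase gene mpkB (0.56 ± 0.08) and the small GTPase gene rasB (0.58 ± 0.09) rose.

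Stress-defence genes were lower more often than higher. Of 22 on the list 2 rose and 10 fell, where 23.0% and 18.1% of all genes did, with a median log2 change of -0.28. The 10 that fell include catA, atfA and atfB, given above, and hsp70, hsp90 and hsp60, which are counted again in the heat shock list that follows. The glutathione reductase gene glr1 (-0.55 ± 0.07), the manganese-type superoxide dismutase gene sod2 (-0.53 ± 0.08) and cpcA, the activator gene of amino acid starvation responses (-0.51 ± 0.08), fell. mbf1 had no count in the OE-labelled libraries and 0.638 and 0.336 CPM in wild type, which makes it at least 5.19-fold lower, taking 3 counts over the group. That call was lost without OE-labelled culture 1 (adjusted p = 0.0545). Of the genes that rose, ccpA had 93 and 122 CPM in the OE-labelled cultures and 9.8 and 19.3 CPM in wild type (adjusted p = 1.19e-07, log2 change 2.88 ± 0.21, and 3.47 without wild-type culture 2), and its role is not given by the reference. The other was sskA, so that 1 gene rose in the fits without the libraries that end its call.

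Of 14 heat shock and folding genes, 7 fell and 2 rose, where 18.1% and 23.0% of all genes did, with a median log2 change of -0.23. Leaving out 1 library gave 5 or 6 that fell. hsp70 had 661 and 754 CPM in the OE-labelled cultures, against 2017 and 1611 CPM in wild type (log2 change -1.36 ± 0.13, adjusted p = 1.08e-06). hsp90 had 934 and 990.4 CPM, against 1574 and 1333 CPM in wild type (log2 change -0.60 ± 0.11, adjusted p = 0.000453). hsp60 (-0.63 ± 0.12) and the co-chaperone gene sti1 (-0.60 ± 0.10) also fell. The genes that rose belong to the unfolded protein response of the endoplasmic reticulum: the bZIP gene hacA had 756 and 755 CPM, against 459 and 512 CPM in wild type (adjusted p = 1.9e-05, log2 change 0.64 ± 0.08), and the sensor gene ireA rose by 0.31 ± 0.08 (adjusted p = 0.0503 without OE-labelled culture 1). The chaperone gene bipA was not called (671 and 617 CPM and 590.2 and 590.3 CPM in wild type). The folding genes pdiA and clxA, also on the list, were not among the 2 that rose. At 17 h 9 of the 14 genes were lower and 0 higher, where 14.5% and 15.1% of all genes were. The interaction test called 3 of the 14 genes (28.9% of all genes), hsp78, fes1 and hacA, each with the 48 h difference above the 17 h difference. For hsp70 it gave -0.46 ± 0.17 (adjusted p = 0.0644).

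**Figure D4:**
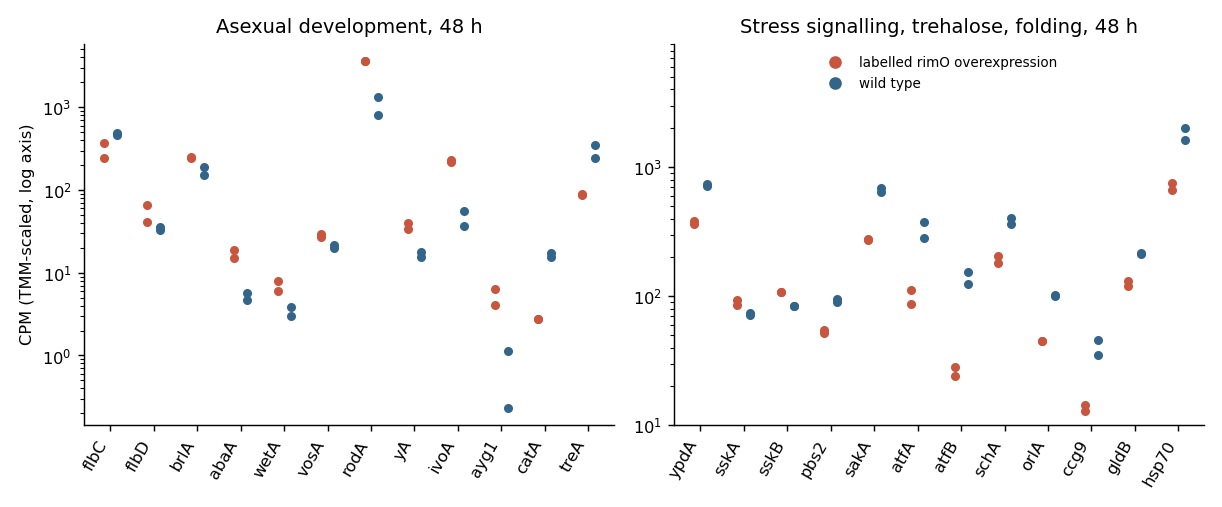
Genes of asexual development (left) and of stress signalling, trehalose, glycerol and folding (right) in CPM (y axis, log scale) at 48 h, with 1 point per culture and the OE-labelled cultures left of wild type for each gene (x axis). Of the genes plotted on the left, flbC, catA and treA were called lower in the OE-labelled cultures and the others higher; on the right, sskA and sskB were called higher and the others lower. The plotted genes were chosen after their values were seen.

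Regulators of secondary metabolism were also followed. The velvet proteins VeA and VelB bind the methyltransferase LaeA and couple development with secondary metabolism. laeA had 129.6 and 114 CPM in the OE-labelled cultures, against 50.2 and 51.3 CPM in wild type (adjusted p = 4.49e-08, log2 change 1.27 ± 0.08), and it was higher at 17 h as well (0.49 ± 0.10, adjusted p = 0.00165). The rise at 48 h was the larger one by 0.78 ± 0.13 (adjusted p = 0.000377). veA had 606 and 560.4 CPM, against 398 and 387 CPM in wild type (adjusted p = 5.47e-05, log2 change 0.57 ± 0.08), and its difference at 17 h was 0.52 ± 0.08. velB fell by a small amount (-0.33 ± 0.09), and its call was lost without wild-type culture 1 or OE-labelled culture 2 (adjusted p = 0.0831 and 0.0721). Of 11 genes on this list 4 rose and 1 fell, where 23.0% and 18.1% of all genes did. The number that rose was 2 without wild-type culture 1 or OE-labelled culture 1, and the number that fell was 0 without wild-type culture 1 or OE-labelled culture 2.

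Of 13 autolytic hydrolase and protease genes 5 rose and 0 fell, where 23.0% and 18.1% of all genes did, and 8 were not called. This list holds only genes with a symbol, so hydrolase genes that the reference does not name are not counted. The number that rose was 5 or 6 with any library left out. mep20, named after a secreted metalloprotease of other aspergilli, had the largest fold gain among genes that averaged 10 CPM or more. It stood at 1222 and 1013 CPM in the OE-labelled cultures, against 13.2 and 27.5 CPM in wild type. This is a 54.7-fold difference (log2 change 5.77 ± 0.25, adjusted p = 4.35e-09; 6.42 without wild-type culture 2). At 17 h mep20 was near 0 in both strains, with 0.264 and 0.28 CPM in the OE-labelled cultures and 0 and 0 CPM in wild type. The dipeptidyl peptidase genes dppV and dppIV rose as well. dppV had 38.2 and 36 CPM, against 8.12 and 8.79 CPM in wild type (adjusted p = 2.45e-09, log2 change 2.14 ± 0.10), and dppIV had 73.9 and 71.6 CPM, against 24.9 and 29.1 CPM in wild type (log2 change 1.43 ± 0.12, adjusted p = 3.57e-07). Both were higher at 17 h too (2.51 ± 0.10 for dppV and 2.70 ± 0.15 for dppIV). exgO, a glucanase gene by its name, had 271 and 260.3 CPM, against 123 and 132 CPM in wild type (log2 change 1.06 ± 0.10). The chitinase gene chiA1 was not called (2.97 and 3.25 CPM and 2.61 and 1.23 CPM in wild type; called without wild-type culture 1, log2 change 1.32, adjusted p = 0.0202).

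In nitrogen and carbon metabolism the changes went both ways. glnA, the glutamine synthetase gene and among the 5 genes that lost most CPM, stood at 1770.4 and 966 CPM in the OE-labelled cultures and 3220.2 and 3013 CPM in wild type (adjusted p = 0.000187, log2 change -1.19 ± 0.19), and the OE-labelled cultures differed from each other. Of 11 nitrogen assimilation genes 2 rose (1 without wild-type culture 1 or OE-labelled culture 2) and 1 fell, where 23.0% and 18.1% of all genes did, and amdR, the activator gene for amide use, rose by 0.65 ± 0.11. The nitrate reductase gene niaD was below 1 CPM in all 4 cultures, and the nitrogen regulator gene areA had 215 and 166 CPM and 199 and 205 CPM, with no call. Of 14 genes of the glyoxylate cycle, gluconeogenesis, acetate and fatty acids, 6 rose and 3 fell, against the same shares, so that the falls were near the share over all genes. The number that rose was 4 without wild-type culture 1 or OE-labelled culture 2, and the number that fell was 2 without wild-type culture 2 or OE-labelled culture 2. acuF, the gluconeogenic PEP carboxykinase gene, had 296 and 204 CPM, against 427 and 487 CPM in wild type (log2 change -0.87 ± 0.14, adjusted p = 0.000175). The citrate synthase gene cit1 fell (-0.64 ± 0.11), and kat1, a thiolase gene by its name, rose (0.40 ± 0.07). creA, the carbon catabolite repressor gene, was not called (367 and 333 CPM and 366 and 405 CPM in wild type).

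Genes of proline breakdown differed between the harvests. prnD, the proline oxidase gene, had 30.3 and 18.7 CPM in the OE-labelled cultures at 48 h, against 45.2 and 40.6 CPM in wild type (log2 change -0.78 ± 0.16, adjusted p = 0.00133). prnC, which acts at the next step, had 187 and 165 CPM, against 115 and 122 CPM in wild type (log2 change 0.57 ± 0.10, adjusted p = 0.000491). At 17 h prnD had 0.793 and 0.77 CPM in the OE-labelled cultures and 1066 and 1007 CPM in wild type, and prnC had 7.07 and 5.04 CPM and 733 and 700.2 CPM. The difference between harvests was 9.58 ± 0.30 for prnD (adjusted p = 7.54e-11) and 7.45 ± 0.17 for prnC (adjusted p = 4.01e-12). The proline transporter gene prnB was not called at 48 h (3.01 and 1.62 CPM and 4.64 and 3.02 CPM in wild type), but was called lower without wild-type culture 2 or OE-labelled culture 1 (adjusted p = 0.014 and 0.0116), with the replicate block (log2 change -0.63, adjusted p = 0.0444) and by DESeq2 (adjusted p = 0.025). In phenylalanine breakdown maiA (0.66 ± 0.14), fahA (0.73 ± 0.13) and hmgX (0.68 ± 0.15) rose, and hmgA was not called (63.3 and 73.5 CPM and 59.3 and 59.3 CPM in wild type).

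Of 7 drug efflux genes 3 fell and 0 rose, where 18.1% and 23.0% of all genes did, and 4 were not called. The number that fell was 2 without wild-type culture 1 or OE-labelled culture 2, which ended the call of mdr2 (adjusted p = 0.122 and 0.0569). The ABC transporter gene mdr1, named after a drug efflux pump, had 139 and 183 CPM in the OE-labelled cultures, against 1621 and 849 CPM in wild type (log2 change -2.94 ± 0.22, adjusted p = 1.63e-07). mfsA, a transporter gene by its name, had 40.5 and 14 CPM, against 123 and 112 CPM in wild type (log2 change -2.04 ± 0.27, adjusted p = 3.6e-05; -3.07 without OE-labelled culture 1). Of 13 genes of G protein signalling 4 rose and 4 fell, where 23.0% and 18.1% of all genes did. The receptor genes gprC, gprM and gprD rose: gprC had 43.1 and 40.9 CPM, against 16.2 and 19.4 CPM in wild type (log2 change 1.24 ± 0.10, adjusted p = 2.93e-07), gprM changed by 0.77 ± 0.12 and gprD by 1.48 ± 0.31 (2.23 without wild-type culture 2). On the same list the pheromone receptor gene preA fell (log2 change -1.01, and -0.72 without wild-type culture 2). The G protein alpha subunit gene gpaB fell (-0.53 ± 0.07) and gpaA rose (0.42 ± 0.09).

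In the cell wall list of 28 genes 5 rose and 4 fell, where 23.0% and 18.1% of all genes did. ags1, an alpha-glucan synthase gene, had 11.8 and 4.87 CPM in the OE-labelled cultures, against 22.2 and 16.9 CPM in wild type (log2 change -1.13 ± 0.25, adjusted p = 0.00227; -2.002 without OE-labelled culture 1). rho3, a small GTPase gene, had 49.1 and 44.5 CPM, against 95.2 and 90.4 CPM in wild type (log2 change -0.98 ± 0.08, adjusted p = 2.47e-07). ugd2 had 3.11 and 4.06 CPM, against 0.522 and 0.784 CPM in wild type (adjusted p = 2.83e-05), and scw4 (1.81 ± 0.35) also rose. The number that rose was 3 without wild-type culture 1. For the translation list of 11 genes, 6 rose and 1 fell by small amounts, where 23.0% and 18.1% of all genes did, and 1 rose without wild-type culture 1 or OE-labelled culture 1, 3 without wild-type culture 2. Of 28 ribosome biogenesis genes 6 rose and 2 fell, where 23.0% and 18.1% of all genes did. nopA had 86.7 and 82.5 CPM, against 259 and 205 CPM in wild type (log2 change -1.46 ± 0.16, adjusted p = 5.26e-06). The number that rose there was 1 without OE-labelled culture 1 and 2 without wild-type culture 2, and the number that fell was 1 without wild-type culture 1. In the list of histones and cell cycle, 5 of 22 genes rose, close to the 23.0% of all genes, and 1 fell, and 0 fell with any library left out. Of 16 proteasome genes 4 fell, where 18.1% of all genes did, and 0 to 4 did with a library left out, the 0 being without wild-type culture 1, 1 without wild-type culture 2 and 2 without OE-labelled culture 2.

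**Figure D5:**
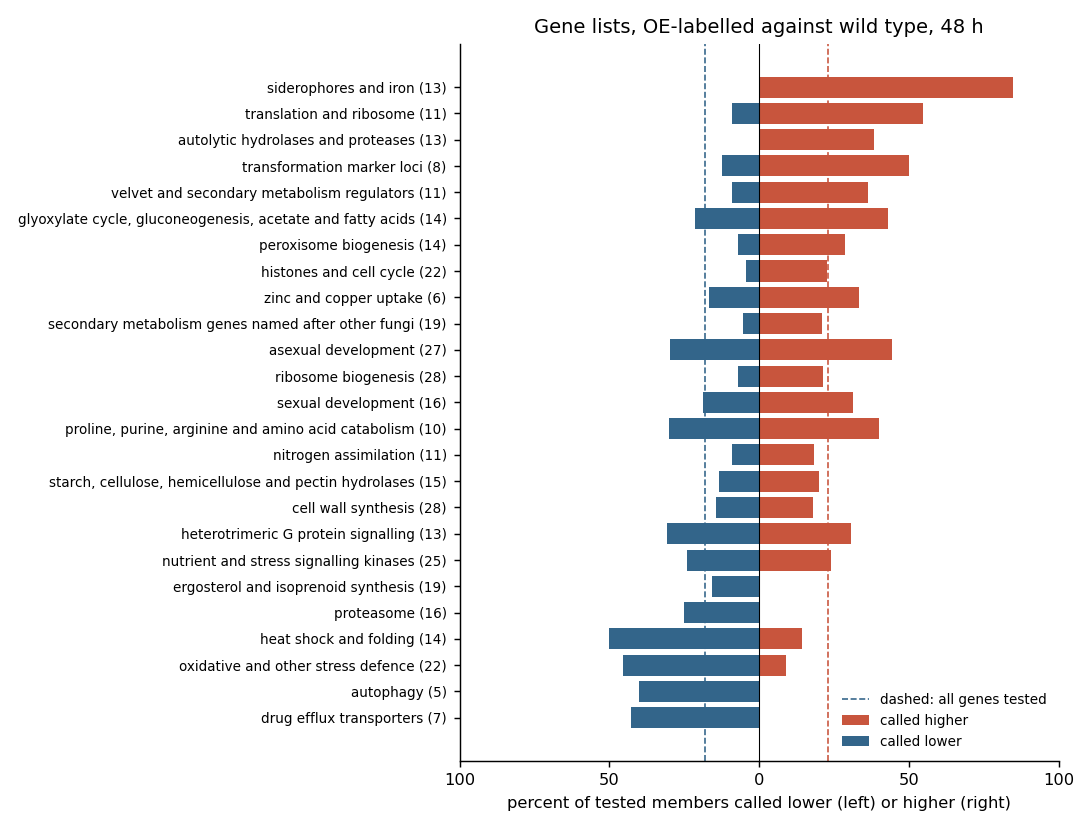
Percent of each list's tested members (number in brackets) called higher (right) or lower (left) in the OE-labelled cultures at 48 h, for the lists with at least 5 tested members, with dashed lines at 23.0% and 18.1% for all genes tested. The siderophore list reaches furthest to the right, and the heat shock and stress-defence lists reach furthest to the left.

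The genes at the ends of the range were mostly ones the reference does not name. Of the 12 genes that rose most among genes averaging at least 10 CPM, 4 have a symbol: mep20, mirB, sidH and ccpA. AN8539 had 44.3 and 28.1 CPM in the OE-labelled cultures, against 1.28 and 3.3 CPM in wild type (log2 change 3.99 ± 0.28, adjusted p = 6.26e-08; 4.86 without wild-type culture 2). AN2622 had 75 and 77.7 CPM, against 6.15 and 6.22 CPM in wild type (log2 change 3.62 ± 0.15, adjusted p = 1.07e-09). In AN2622 the strains stood the other way round at 17 h, at 7.86 and 5.67 CPM and 24.7 and 25.6 CPM (-1.89 ± 0.16, adjusted p = 1.09e-06). AN6095 likewise was higher at 48 h (3.45 ± 0.18) and lower at 17 h (-1.10 ± 0.25). AN5046 was higher at both, with 312 and 334 CPM and 26.2 and 40.4 CPM at 48 h (3.28 ± 0.18) and 87.1 and 115 CPM and 10.5 and 10.8 CPM at 17 h (3.24 ± 0.21). The others were AN7961 (3.50 ± 0.18), AN6234 (3.16 ± 0.22), AN1837 (2.96 ± 0.17) and AN11233 (2.86 ± 0.25).

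None of the 12 genes that fell most has a symbol. AN8641 had 12.5 and 6.67 CPM in the OE-labelled cultures, against 475 and 324 CPM in wild type (log2 change -5.31 ± 0.28, adjusted p = 7.28e-09; -5.90 without OE-labelled culture 1). AN6693 had 3.16 and 2.62 CPM, against 112 and 74.8 CPM in wild type (log2 change -4.98 ± 0.19, adjusted p = 7.97e-10). AN4113 had 9.52 and 6.76 CPM, against 253 and 189.5 CPM in wild type (log2 change -4.72 ± 0.27, adjusted p = 1.17e-08). In each the wild-type cultures stood far above both OE-labelled cultures, and at 17 h none of the 3 was called. AN10250, AN5159, AN0045, AN6856, AN5338, AN7539, AN0771 and AN5324 fell by log2 changes from -4.19 ± 0.18 (AN10250) to -3.83 ± 0.26 (AN5324). The interaction test called each of them and the 3 above (28.9% of all genes), and choosing genes by their 48 h fall favours such calls. Without OE-labelled culture 1 the change was -4.57 for AN5338 and -4.67 for AN7539. AN0771 had 4.5 and 3.79 CPM in the OE-labelled cultures and 101 and 23.6 CPM in wild type (log2 change -3.88 ± 0.53), and its size depended on the wild-type culture. It was -2.47 without wild-type culture 1 (adjusted p = 1.04e-07) and -4.56 without wild-type culture 2 (adjusted p = 7.93e-11). AN5245, also among the 12, had 308 and 358 CPM in the OE-labelled cultures and 12615 and 505 CPM in wild type, so its change (-4.30 ± 1.19, adjusted p = 0.0103) rests on wild-type culture 1. Without that culture the change was -0.59 (adjusted p = 0.646), and without either OE-labelled culture the adjusted p was 0.0743 and 0.0635. AN20048, named here after its values were seen, was likewise set by wild-type culture 1 (32.5 and 40.4 CPM in the OE-labelled cultures and 927 and 40.2 CPM in wild type; without it the change was -0.15, adjusted p = 0.940).

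Counted in CPM, the largest gains were in AN4871, rodA, AN4825, AN0472 and AN7181. AN4871 had 6831 and 5797 CPM in the OE-labelled cultures, against 2915 and 3152 CPM in wild type (log2 change 1.06 ± 0.10, adjusted p = 1.09e-06). AN7181 had 1830.0 and 1664 CPM, against 553 and 617 CPM in wild type (log2 change 1.58 ± 0.13, adjusted p = 2.69e-07). AN4825 and AN0472 rose by 0.99 ± 0.13 and 1.38 ± 0.12. Besides AN5245 and glnA, the largest losses were in AN4859, with 909 and 793 CPM and 2466 and 2293 CPM in wild type (log2 change -1.48 ± 0.10), in AN11705 (-0.88 ± 0.11) and in AN7825 (-0.82 ± 0.17).

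Along the chromosomes, called genes with at least 2-fold changes in 1 direction stood side by side in places. Taking genes in the order of the reference assembly ASM1142v1, there were 17 runs of at least 4 successive tested genes, 13 of them higher and 4 lower in the OE-labelled cultures. They held 94 genes, 68 higher and 26 lower. Secondary metabolism genes of filamentous fungi often lie in such groups, but the reference names few of these genes.

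The longest run held 13 lower genes, AN7892 to AN7903, with a median log2 change of -4.04. AN7892 had 10 and 7.67 CPM in the OE-labelled cultures, against 50.2 and 38.9 CPM in wild type (log2 change -2.31 ± 0.24, adjusted p = 3.95e-06). AN7893 had 0.144 and 0.0902 CPM, against 7.08 and 4.26 CPM in wild type (log2 change -5.41 ± 0.48, adjusted p = 7.38e-07). AN7900 had no count in the OE-labelled libraries and 1.33 and 0.728 CPM in wild type, which is at least 11-fold lower, taking 3 counts over the group. AN7903, at the end of the run, had 0 and 0.18 CPM and 4.87 and 2.41 CPM in wild type (-5.68 ± 0.73; from -8.80 without OE-labelled culture 2 to -4.27 without OE-labelled culture 1). These levels are low in both strains, with AN7892 the only gene of the run above 10 CPM in wild type on average. In the deletion-labelled cultures at 54 h the same genes were abundant, for example 4759.8 and 4231 CPM of AN7895, against 0.383 and 0.541 CPM in the OE-labelled cultures and 3.89 and 1.46 CPM in wild type at 48 h. The call of AN7895 (-2.57 ± 0.63) was lost without wild-type culture 1 or OE-labelled culture 1 (adjusted p = 0.0776 and 0.0754).

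The second run held 12 higher genes, AN9243 to AN11205, with a median log2 change of 2.58. AN9253 had 60.4 and 77.3 CPM in the OE-labelled cultures, against 7.54 and 11.9 CPM in wild type (log2 change 2.81 ± 0.21, adjusted p = 6.63e-07). AN9246 had 12.6 and 16.5 CPM, against 1.62 and 2.18 CPM in wild type (log2 change 2.91 ± 0.28, adjusted p = 5.24e-06). AN11205 had 5.93 and 7.58 CPM, against 0.406 and 0.784 CPM in wild type (log2 change 3.46 ± 0.36, adjusted p = 1.87e-05). The weakest member was AN9243 (1.09 ± 0.38), lost without wild-type culture 1, wild-type culture 2 or OE-labelled culture 2 (adjusted p = 0.145, 0.0597 and 0.204). Its neighbours AN9246 and AN9253 were at or near 0 in both strains at 17 h, and in the deletion-labelled cultures at 54 h (0.167 and 0 CPM of AN9253).

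Siderophore genes made up much of 2 other runs. The run from sidJ (AN6239) to AN6234 held sidJ, mirD, AN6237, sidD, sidH and AN6234, all higher, with a median log2 change of 2.16. AN6234 had 40.6 and 32.2 CPM in the OE-labelled cultures, against 2.84 and 5.32 CPM in wild type (adjusted p = 7.49e-08, log2 change 3.16 ± 0.22), and AN6237 had 10.5 and 9.65 CPM, against 3.19 and 5.04 CPM in wild type (log2 change 1.30 ± 0.22). Both were lower in the OE-labelled cultures at 17 h (-0.72 ± 0.17 and -1.27 ± 0.15), as sidD and sidH were. A run of 4 genes, AN0609 to AN0606, began with sidI and held sidC. Elsewhere, a run of 6 higher genes from AN3349 (1.02 ± 0.09) to AN3344 (2.44 ± 0.32, and 3.13 without wild-type culture 1) had a median of 1.82, and 6 higher genes from AN8423 (3.13 ± 0.54, and 4.08 without wild-type culture 2) to AN8429 (1.04 ± 0.31) had a median of 1.31 at low levels. The AN8429 call was lost without wild-type culture 1 or OE-labelled culture 1 (adjusted p = 0.143 and 0.094). catA lay in a run of 4 lower genes, AN8639 to AN8636, and ivoA in a run of 4 higher genes, AN4643 to AN10576.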

How the data were processed

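Poly(A) RNA was enriched and made into libraries (Nextera kit), per the labels' protocols. Trimmomatic, BWA, HTSeq, limma and edgeR are named without versions, per the submitters' processing notes. The genome build and the strandedness of counting are not given in the sources used here, so reads of a gene and of an overlapping, antisense or near-identical gene could not be told apart. The deposited values are whole-number counts per gene, 1 column per library. Deposited group values in log2 RPKM were not used. Of 10727 entries, 15 repeated ones and 31 upstream open reading frames (0.000199% of counts) were left out, which left 10681 genes. Library totals ranged from 9269951 to 17891416 counts.

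Tests were run in edgeR 4.0.16 under R 4.3.3: TMM scaling, filterByExpr (9670 genes kept, 1011 below the filter) and 1 quasi-likelihood fit of all 12 libraries in their 6 groups (6 residual and 7.73 prior degrees of freedom, biological coefficient of variation 8.20%), with Benjamini-Hochberg adjustment. TMM takes most genes as unchanged, and 41.1% were called, so other scalings were tried. The SE was derived as the absolute log2 change divided by the root of F, and it can be too small at few counts. A group without counts was bounded at 3 counts over the group (0.0938 CPM in the OE-labelled group), which covers counting error only. Cultures differed by more than counting error (chi-square per degree of freedom 10.0 for the OE-labelled and 36.3 for the wild-type pair). On simulated data for this comparison (9589 genes) 32 of 50 genes with a log2 change of 0.5 were recovered, 49 of 50 at 1, and 50 of 50 at 2 or 4, while 10 unchanged genes were called. The changed genes were drawn only from those with more than 50 expected counts in the smallest library compared. The recovery therefore does not cover genes at low counts, or scaling when as many genes differ as the 41.1% called here.

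Symbols and gene order come from the table of assembly ASM1142v1 (9967 genes matched, 778 with a symbol). The comparison, the gene lists and the tests were chosen with earlier results of these data known. Lists were completed from the table's symbols, so genes without a symbol are on none of them. Of 32 lists, 30 had at least 3 members. Named genes are AN7572, the 12 highest and 12 lowest called changes among genes averaging 10 CPM or more, the 3 members of each list that changed most among those called (or the smallest p), the first, last and top gene of the 5 longest runs, and the 5 called genes that gained or lost most CPM. Further list and run members were chosen after their values were seen. The alternatives tried were scaling by RLE or by the upper quartile, limma-voom 3.58.1, DESeq2 1.42.0, no filter, at least 5 CPM in 2 libraries, a replicate block, the 4 libraries alone, an adjusted p under 0.01, and each of the 4 libraries left out.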

Additional observations from a re-analysis of the deposited data

Results flagged for a closer look

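AN7572 and the 24 genes with the highest and lowest called changes at 48 h were examined for a strain difference, OE-labelled minus wild type, that changed between 17 h and 48 h. The interaction term of the edgeR fit called 19 of these 25, where it called 28.9% of all genes tested. It also called other genes, which are given beside their 48 h values above. Values are the 48 h difference minus the 17 h difference on the log2 scale, with SE and Benjamini-Hochberg adjusted p. The 11 genes in the second group of sentences were chosen for low 48 h values and the 7 in the first for high ones, so a large difference is favoured by the choice.

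AN7572, the gene taken for rimO, had -2.77 ± 0.13 (adjusted p = 6.63e-09): it was higher in the OE-labelled cultures at 17 h and lower at 48 h. Among the genes that rose most at 48 h, the difference was 5.51 ± 0.22 for AN2622 (adjusted p = 1.3e-09), 4.55 ± 0.31 for AN6095, 4.07 ± 0.24 for sidH (adjusted p = 5.07e-08), 3.98 ± 0.87 for AN1837, 3.88 ± 0.28 for AN6234, 3.20 ± 0.33 for mirB and 2.44 ± 0.39 for AN8539. AN2622, AN6095, sidH and AN6234 were called lower in the OE-labelled cultures at 17 h, AN8539 was called higher there, and AN1837 and mirB were not called.

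Among the genes that fell most at 48 h, the difference was -5.20 ± 0.40 for AN7539 (adjusted p = 3.63e-07), -5.15 ± 0.35 for AN8641 (adjusted p = 1.3e-07), -5.08 ± 0.24 for AN6693 (adjusted p = 5.93e-09), -4.86 ± 0.35 for AN5324, -4.52 ± 0.34 for AN4113, -4.18 ± 0.30 for AN5338, -4.07 ± 0.30 for AN6856, -3.99 ± 0.26 for AN5159, -3.91 ± 0.43 for AN0045, -3.84 ± 0.25 for AN10250 and -3.61 ± 0.68 for AN0771. AN7539 had 1294 and 1281 CPM in the OE-labelled cultures and 547 and 505 CPM in wild type at 17 h, and AN5324 had 76.1 and 61.7 CPM and 37.4 and 29.8 CPM, both called higher there. The other 9 were not called at 17 h.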

How the results depend on the processing

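The counts of genes called at 48 h stayed within 1.5 times under every alternative run, with 2 exceptions among the genes called higher: 1416 at an adjusted p under 0.01, and 1436 without wild-type culture 1 (range over the libraries left out 1436 to 1793, main value 2220). That stricter threshold also gave 1808 interaction calls, 734 of them positive, and 1743 calls at 17 h, 840 higher and 903 lower. The AN7572 change at 48 h ranged from -0.46 to -0.31 with a library left out, and without OE-labelled culture 1 it was not called (adjusted p = 0.0514). Over the libraries left out, all calls at 48 h ranged from 2735 to 3236, those lower from 1299 to 1518, those at least 2-fold higher from 407 to 513 and at least 2-fold lower from 507 to 588. Upper-quartile scaling moved the median of all genes by 0.055. Of 163 named genes called, 38 lost the call in some setting. Of the genes named, 2 that were not called turned direction: areA, which ranged from -0.28 to 0.092 over the libraries left out (0.092 without OE-labelled culture 2), and amcA, which ranged from -0.10 to 0.25 (-0.10 without wild-type culture 1).

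Replicate numbers are shared between the groups, but same-numbered cultures did not deviate together (r = 0.028 between the OE-labelled and wild-type pairs at 48 h, -0.15 to 0.10 over all pairs of groups). The fit with a replicate block made 3823 calls at 48 h, and MAT2 and pre5 alone among the named genes lost their calls, while prnB alone gained one (adjusted p = 0.0444). With 2 cultures a side and 9269951 counts in the smallest library, genes below about 1 CPM rest on few counts, and strain and construct effects cannot be told apart.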

Other observations

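Lists not yet described gave smaller or mixed changes. Among 16 sexual development genes 5 rose and 3 fell, where 23.0% and 18.1% of all genes did. The receptor gene gprD had 3.78 and 3.07 CPM in the OE-labelled cultures, against 0.754 and 1.74 CPM in wild type, and the pheromone receptor gene preA had 5.12 and 4.96 CPM, against 8.47 and 11.9 CPM in wild type (log2 change -1.01 ± 0.25). None of the 3 falls held without wild-type culture 2, where preA had an adjusted p of 0.0682 by edgeR, and 1 held without OE-labelled culture 1. Of 14 peroxisome genes 4 rose and 1 fell, against the same shares over all genes, and 2 rose without wild-type culture 1 or OE-labelled culture 1. pmp47, a peroxisomal membrane protein gene, had 99.8 and 98.6 CPM, against 165 and 179.6 CPM in wild type (log2 change -0.80 ± 0.09, adjusted p = 8.89e-06). pex7, a peroxisomal import receptor gene, had 33.9 and 35.6 CPM, against 23.8 and 25.3 CPM in wild type (log2 change 0.50 ± 0.10). Of 6 zinc and copper uptake genes 2 rose (1 without OE-labelled culture 1) and 1 fell, against the same shares. The 1 that fell, the zinc transporter gene zrfD, had 35.4 and 33.5 CPM, against 41.8 and 40.7 CPM in wild type (adjusted p = 0.0412, log2 change -0.26 ± 0.09), and was not called with any 1 of the 4 libraries left out (by edgeR, adjusted p = 0.0711 to 0.185). The zinc transporter gene zrfC had 21.2 and 22.6 CPM, against 11 and 13.8 CPM in wild type (log2 change 0.82 ± 0.12, adjusted p = 0.000106), while at 17 h it was lower (-0.50 ± 0.10).

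Of 19 tested genes that carry secondary metabolism names from other fungi, 4 rose and 1 fell, where 23.0% and 18.1% of all genes did, and 2 rose without wild-type culture 1, OE-labelled culture 1 or OE-labelled culture 2. fmaF had 16.9 and 19.9 CPM in the OE-labelled cultures, against 7.25 and 5.43 CPM in wild type (log2 change 1.53 ± 0.18), and tpcL had 358 and 382 CPM, against 704 and 536 CPM in wild type (log2 change -0.74 ± 0.12). The polyketide synthase gene pkhB had 120.4 and 114 CPM, against 316 and 299 CPM in wild type (log2 change -1.39 ± 0.12, adjusted p = 7.38e-07). The pH regulator gene pacC had 360.0 and 329.7 CPM, against 245 and 234 CPM in wild type (log2 change 0.53 ± 0.08, adjusted p = 0.000178). Of 19 ergosterol and isoprenoid genes 3 fell, where 18.1% of all genes did, and erg4A changed by -0.51 ± 0.10. The number that fell was 1 without wild-type culture 1 and 2 without OE-labelled culture 2, and erg9 and erg1 each lost the call without either culture (by edgeR, adjusted p = 0.131 and 0.145 without wild-type culture 1, and 0.0761 and 0.137 without OE-labelled culture 2). Of 5 autophagy genes 2 fell, against the same share, and 1 without wild-type culture 1, wild-type culture 2 or OE-labelled culture 1; atg26 changed by -0.60 ± 0.08 (adjusted p = 5.68e-05). Among 8 loci on a list of genetic markers 4 rose and 1 fell, where 23.0% and 18.1% of all genes did. Those that rose include veA and yA, which are counted in lists above as well. Some of these calls, the fall among them, were lost without wild-type culture 1 or OE-labelled culture 1.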
